A study of Mus musculus with 8 samples.

Results

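The genes described here encode a small group of endosomal and lysosomal proteases and of protease inhibitors. They are the aspartic protease cathepsin E (Ctse), the cysteine proteases cathepsin B (Ctsb), cathepsin L (Ctsl) and legumain (Lgmn), and the inhibitors cystatin B (Cstb), Ctla2a and Ctla2b. All 7 were found among the 6986 genes of the value table, each read by 1 probe set. They were chosen by their function around Ctse, which an earlier look at these data had found far higher in the mutant arrays. The difference between the genotypes is therefore part of how the set was selected on these arrays, and it is given for the 7 genes as a description, without a test.

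The data come from CD4+CD25+ lymphocytes, the fraction in which regulatory T cells (Treg) are concentrated, sorted by flow cytometry from the para-aortic lymph nodes of pregnant mice at day 9.5 post coitus. One group was 4 arrays labelled IL10-/-, from mutant mice bred into the C57BL/6 colony, whose drinking water held oxytetracycline at 2 mg/ml to prevent colitis. The other was 4 arrays labelled IL10+/+, from C57BL/6 mice for which the labels state no antibiotic, so genotype and antibiotic cannot be told apart. RNA from 2 to 4 mice was pooled for every array, which the design text counts as 4 biological replicates of each genotype. Values of single arrays are given in the order of replicates 1 to 4 throughout. The mutated part of Il10 is not given in the sources used here, and its probe set read 9.17 ± 0.35 in IL10-/- and 8.10 ± 0.43 in IL10+/+ arrays (log2, SD, n = 4 each), so it does not check the labels. Of 20 T cell and Treg markers, 5 were measured (Cd28, Ctla4, Ikzf2, Ikzf4 and Icos), while Foxp3, Il2ra and Cd4 were not analysed here. In such bulk samples a different share of a cell type and a different RNA content per cell cannot be told apart.

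Endosomal and lysosomal proteases break down proteins taken up or recycled by the cell, and they trim antigens and the invariant chain of MHC class II. They are made as inactive precursors whose propeptide is cut off in the acidic compartment, a step in which legumain takes part by cleaving after asparagine. Papain-like cathepsins such as B and L are held in check by inhibitors of the cystatin family. In mouse, cathepsin L-like proteases are also inhibited by the Ctla2 proteins. These resemble the propeptide of a cathepsin L-like protease and were first found in activated T cells and mast cells. Cathepsin E belongs to a different, pepsin-like class that these inhibitors do not target. In mouse Treg, legumain has been described as a protease that cleaves Foxp3.

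The 2 Ctla2 genes are close copies, and their promoters are shown because both genes lay higher in every IL10-/- array. Promoter windows from RefSeq (build GRCm38.p6) were found for 4 of the 7 genes, Ctla2a, Ctla2b, Ctsl and Lgmn, and that of Ctsl was left out because it lies within the annotated span of the gene. The stretches printed are the 250 bases before 1 annotated start of each Ctla2 gene, at chr13:60936626-60936875 for Ctla2a and chr13:60897448-60897697 for Ctla2b, both on the minus strand and written 5′ to 3′. Capitals mark a match to the AP-1 motif (TGANTCA) and, downstream of it, a match to the core of the cyclic AMP response element (TGACGTC).
Ctla2a: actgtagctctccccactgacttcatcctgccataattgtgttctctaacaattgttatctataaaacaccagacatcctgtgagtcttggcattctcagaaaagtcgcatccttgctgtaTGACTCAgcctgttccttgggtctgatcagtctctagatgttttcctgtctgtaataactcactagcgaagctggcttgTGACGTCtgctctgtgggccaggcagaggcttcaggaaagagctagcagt
Ctla2b: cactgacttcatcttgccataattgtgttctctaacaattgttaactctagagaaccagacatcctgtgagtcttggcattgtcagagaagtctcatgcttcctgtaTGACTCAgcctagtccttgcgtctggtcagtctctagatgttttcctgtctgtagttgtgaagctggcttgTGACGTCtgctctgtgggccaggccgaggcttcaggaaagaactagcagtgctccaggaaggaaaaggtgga
In a global alignment 208 of 228 aligned bases were identical (91.2%), with 8 bases in internal gaps and 36 bases at the ends of the 2 windows left unaligned. The AP-1 match began 129 bases before the start in Ctla2a and 143 bases before it in Ctla2b, and the response element core began 50 and 72 bases before it. Both strands were searched, and 6.75% of 32851 windows of the same length held the first motif and 2.78% the second. Of the pair, Ctla2a alone also held a match to the STAT motif (TTCNNNGAA), present in 7.02% of windows, 157 bases before the start. It alone held the letters of a TATA box (TATAAA), present in 12.4%, 190 bases before the start. None of the matches in the Ctla2 windows overlapped another. A window at another annotated start of Ctla2a held the AP-1 match 188 bases and the response element core 109 bases before that start. Of 205 bases of that window aligned with Ctla2b, 186 were identical (90.7%). The E-box (CACGTG, in 6.02% of windows) was found once in 1 of the 2 Lgmn windows, which also held a TATA box, and the other Lgmn window held 2 GC boxes (GGGCGG, in 32.7%). The motifs were picked after the sequences had been read, and a match describes letters, not a bound factor. In the order of the RefSeq gene table, 1 gene lies between Ctla2a and Ctla2b on chromosome 13. Transcripts of related genes can bind each other's probes on an array, which was not tested here, so the separate signals of Ctla2a and Ctla2b are uncertain.

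Ctse was the member with the widest difference between the genotypes. Its log2 signal, on which 1 unit is a doubling of the normalised intensity, was 11.72, 11.49, 11.75 and 11.72 in IL10-/- replicates 1 to 4, against 9.05, 8.86, 8.60 and 8.81 in IL10+/+ replicates 1 to 4. The 2 ranges were 2.44 log2 units apart, and the array nearest to the other group was IL10-/- replicate 2. The means were 11.67 ± 0.12 in IL10-/- and 8.83 ± 0.19 in IL10+/+ arrays (SD, n = 4 each), a difference of 2.84 (SE 0.12) or 7.16-fold. Its pooled standard deviation within groups was 0.157, at percentile 36.1 of all genes. Ctse and Il10 are both on chromosome 1, and 15 genes of the RefSeq gene table lie between them, 8 of them measured. Whether this stretch of the chromosome differs in sequence between the groups of mice was not tested here. For Ctse, such a difference and the mutation of Il10 cannot be told apart in these arrays.

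**Figure D1:**
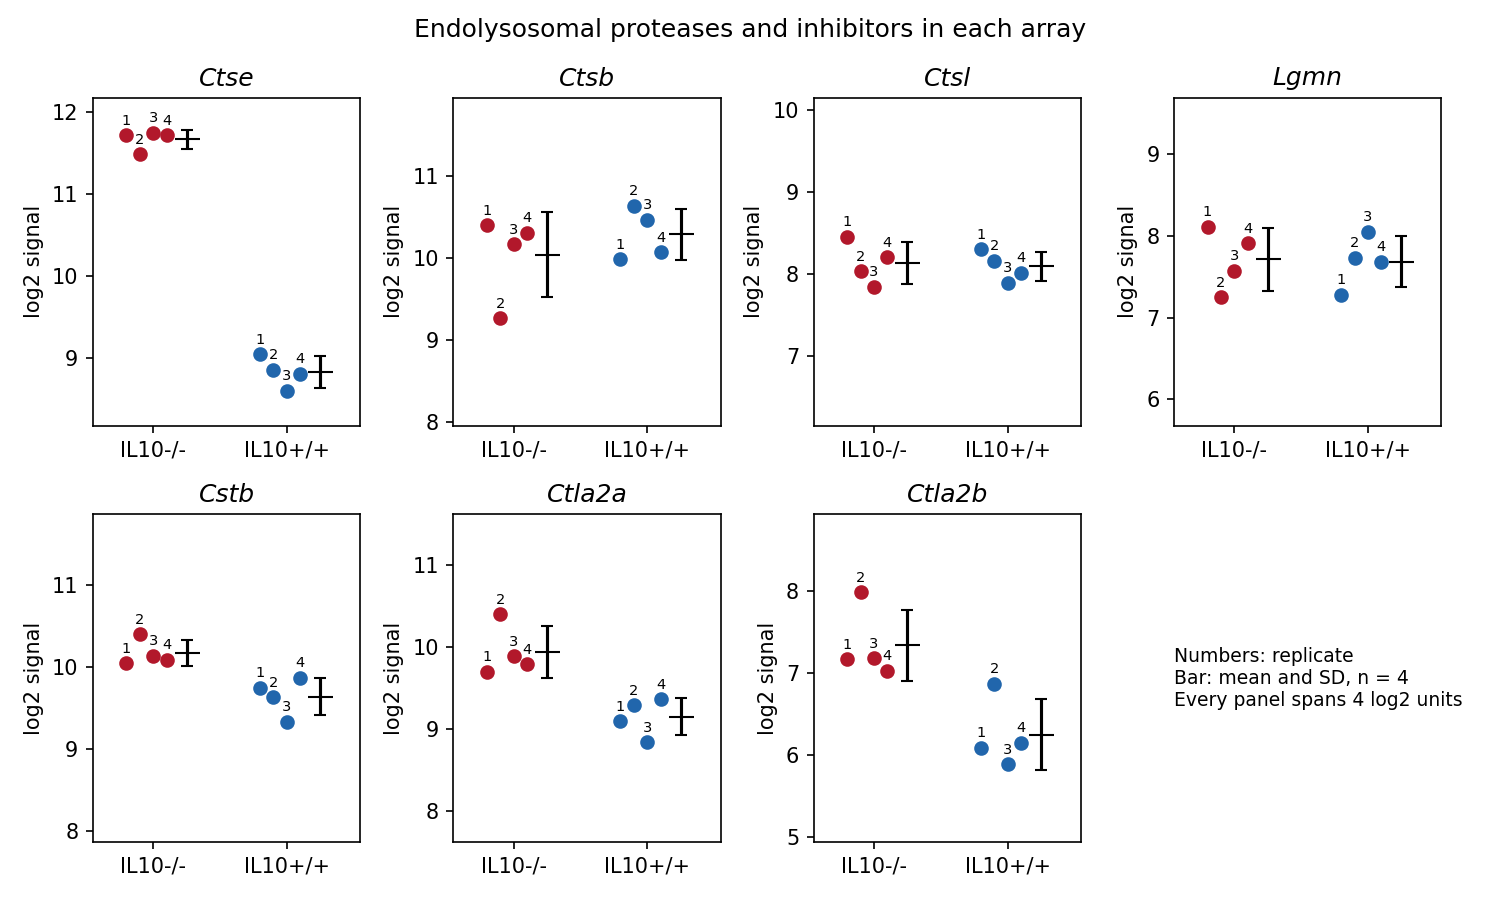
Log2 signal (y axis) of the 7 genes in each array, with IL10-/- arrays in red and IL10+/+ arrays in blue, numbered by replicate. Black bars give mean and SD (n = 4), and every panel spans 4 log2 units. Ctse, Cstb, Ctla2a and Ctla2b show no overlap between the groups, while Ctsb, Ctsl and Lgmn overlap.

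The 3 cysteine proteases overlapped between the groups. Ctsb, which encodes a protease that cuts both inside proteins and from their carboxyl end, read 10.40, 9.27, 10.17 and 10.31 in IL10-/- replicates 1 to 4, against 9.99, 10.64, 10.47 and 10.07 in IL10+/+ replicates 1 to 4. One array, IL10-/- replicate 2, lay below all others. The means were 10.04 ± 0.52 in IL10-/- and 10.29 ± 0.31 in IL10+/+ arrays (SD, n = 4 each), a difference of -0.26 (SE 0.24). Without that array the difference was 0.00, and it was -0.14 without IL10+/+ replicate 2.

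Ctsl, whose product is a potent endopeptidase, read 8.45, 8.03, 7.84 and 8.20 in IL10-/- arrays and 8.30, 8.16, 7.89 and 8.01 in IL10+/+ arrays. Here the 2 groups covered nearly one range. The difference was 0.04 (SE 0.14) between means of 8.13 ± 0.26 in IL10-/- and 8.09 ± 0.18 in IL10+/+ arrays (SD, n = 4 each), and it ran from -0.07 to 0.13 with 1 array left out. Lgmn read 8.11, 7.25, 7.57 and 7.91 in IL10-/- arrays and 7.28, 7.73, 8.05 and 7.68 in IL10+/+ arrays. Its lowest arrays were IL10-/- replicate 2 and IL10+/+ replicate 1, so each group held a low and a high array. Means of 7.71 ± 0.38 in IL10-/- and 7.68 ± 0.31 in IL10+/+ arrays (SD, n = 4 each) gave a difference of 0.03 (SE 0.20), which ran from -0.11 to 0.18 with 1 array left out. The direction of both genes thus turned with single arrays.

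The 3 inhibitors lay higher in every IL10-/- array than in any IL10+/+ array. Cstb, a small cytosolic inhibitor of papain-like cathepsins, read 10.05, 10.40, 10.14 and 10.09 in IL10-/- arrays and 9.75, 9.63, 9.33 and 9.87 in IL10+/+ arrays. The gap between the ranges was 0.18. Means of 10.17 ± 0.16 in IL10-/- and 9.64 ± 0.23 in IL10+/+ arrays (SD, n = 4 each) differed by 0.52 (SE 0.13), or 1.44-fold.

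Ctla2a read 9.70, 10.40, 9.89 and 9.79 in IL10-/- arrays, against 9.09, 9.29, 8.84 and 9.36 in IL10+/+ arrays. The highest was IL10-/- replicate 2, and the ranges were 0.34 apart. The means of 9.94 ± 0.32 in IL10-/- and 9.15 ± 0.23 in IL10+/+ arrays (SD, n = 4 each) differed by 0.80 (SE 0.17), or 1.74-fold. Ctla2b read 7.17, 7.99, 7.18 and 7.03 in IL10-/- arrays, against 6.09, 6.87, 5.89 and 6.15 in IL10+/+ arrays. Each group had its high array in replicate 2, and IL10+/+ replicate 2 came within 0.17 of the lowest IL10-/- array. Means of 7.34 ± 0.43 in IL10-/- and 6.25 ± 0.43 in IL10+/+ arrays (SD, n = 4 each) differed by 1.10 (SE 0.24), or 2.14-fold.

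**Figure D2:**
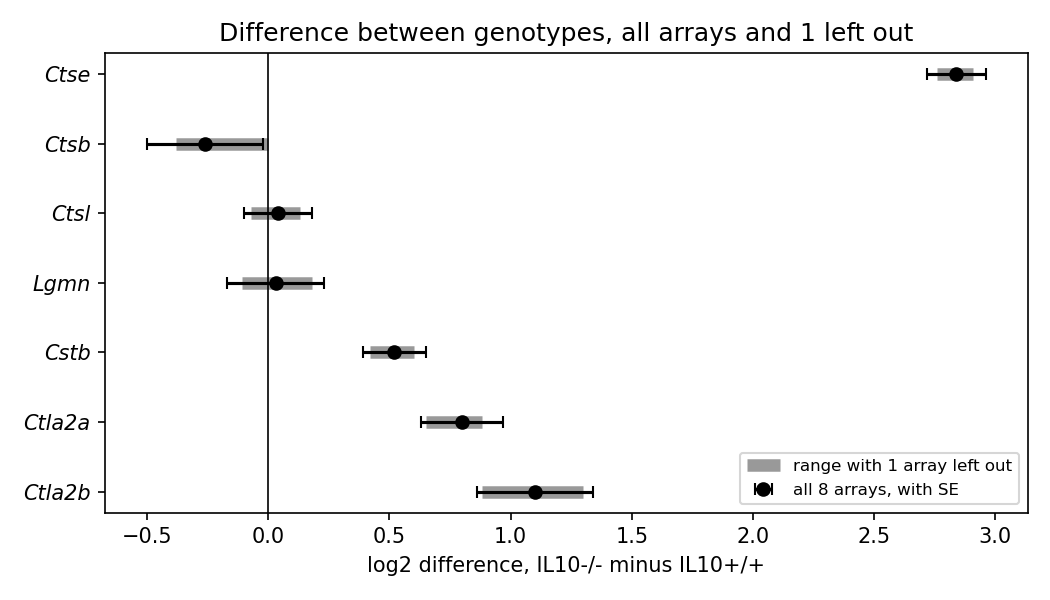
Log2 difference, IL10-/- minus IL10+/+ (x axis), of the 7 genes over all 8 arrays (points with SE), with the range when 1 array at a time is left out (grey bars). The bars of Ctse, Cstb, Ctla2a and Ctla2b stay above 0, those of Ctsl and Lgmn cross it, and that of Ctsb runs from -0.38 to 0.00.

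Counted together, 6 of the 7 genes had a positive difference, where 50.8% of all genes did, and their median was 0.52 against 0.00 over all genes. In 4 of the 7 every IL10-/- array lay above every IL10+/+ array, which was so for 1.83% of all genes, and the groups did not overlap in either direction for 2.92%. Across all genes limma, which fits a linear model to each gene and shares the estimate of spread between genes, called 0.0286% (2 of 6986) at an adjusted p under 0.05, both higher. Since this contrast shaped the choice of the genes, nothing is read from these counts.

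The rule by which the genes were chosen does not name how they varied inside the groups. Whether spread entered the earlier look that found Ctse is not known. Each value was taken as a deviation from the mean of its own group, and the 21 pairs of genes were correlated over the 8 arrays, with exact permutation of arrays within groups (576 orders, two-sided). Ctsb and Lgmn deviated together (Pearson's r = 0.82, exact permutation p = 0.0156; Spearman's rho = 0.88, p = 0.0174). So did Cstb and Ctla2a (r = 0.86, exact permutation p = 0.0226; rho = 0.93, p = 0.0104) and Ctla2a and Ctla2b (r = 0.81, exact permutation p = 0.033; rho = 0.93, p = 0.0104). Whether transcripts of the 2 Ctla2 genes bound each other's probes, which bears on the last coefficient, was not tested. Both proteases of the first pair had a negative coefficient with Cstb, with r = -0.79 between Lgmn and Cstb (exact permutation p = 0.0312; rho = -0.86, p = 0.0139) and r = -0.77 between Ctsb and Cstb (exact permutation p = 0.033; rho = -0.74, p = 0.066). With the Ctla2 genes the coefficients of Ctsb and Lgmn had an unadjusted exact permutation p of 0.0764 to 0.366 for Pearson's r, and r between Ctsb and Ctla2b was -0.40 over all arrays and 0.51 without IL10-/- replicate 2. By each coefficient 5 of the 21 pairs had an unadjusted exact permutation p under 0.05, but not the same 5. Between the 7 genes and all other genes, 7.52% of 48853 pairs had such a p by Pearson's r and 6.36% by Spearman's rho. The 21 pairs share genes and arrays, so they are not independent of each other. Ctsb and Cstb counted by Pearson's r alone, and Cstb and Ctla2b by Spearman's rho alone (rho = 0.90, exact permutation p = 0.0399; r = 0.51, p = 0.276). After Benjamini-Hochberg adjustment over the 21 pairs none passed the threshold, with 0.139 the lowest adjusted exact permutation p for Pearson's r and 0.0911 that for Spearman's rho.

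Single arrays weighed on several of these pairs. With the 2 arrays farthest from the median of the first gene left out, r was 0.48 for Ctsb and Lgmn, 0.37 for Cstb and Ctla2a and 0.85 for Ctla2a and Ctla2b. Without IL10-/- replicate 2 alone it was 0.70 for Ctsb and Lgmn, 0.83 for Cstb and Ctla2a and 0.59 for Ctla2a and Ctla2b. With the 2 farthest arrays left out it was -0.68 for Lgmn and Cstb, -0.65 for Ctsb and Cstb and -0.77 for Cstb and Ctla2b, whose sign thus turned. The arrays left out were IL10-/- replicate 2 with IL10+/+ replicate 1 for Ctsb and Lgmn, with IL10+/+ replicate 3 for Cstb and with IL10+/+ replicate 4 for Ctla2a. Of the 11 pairs with Ctse or Ctsl, the largest coefficient over all 8 arrays was r = 0.54 between these genes (exact permutation p = 0.184, rho = 0.36 with p = 0.396, and r = 0.27 with the 2 arrays left out). The pairs of Ctse moved widely with the arrays used. For Ctse and Lgmn r was -0.22 over all arrays, -0.74 without IL10-/- replicate 2 and IL10+/+ replicate 3, and -0.85 without IL10-/- replicate 2 alone. For Ctse and Cstb it was 0.19 over all arrays, -0.11 without IL10-/- replicate 2 and IL10+/+ replicate 3, 0.70 without IL10-/- replicate 2 and 0.98 without IL10-/- replicate 2 and IL10+/+ replicate 4. For Ctse and Ctla2a it was -0.20 over all arrays, -0.75 without IL10-/- replicate 2 and IL10+/+ replicate 3, and 0.43 without IL10-/- replicate 2 alone. These values with arrays left out were not tested.

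**Figure D3:**
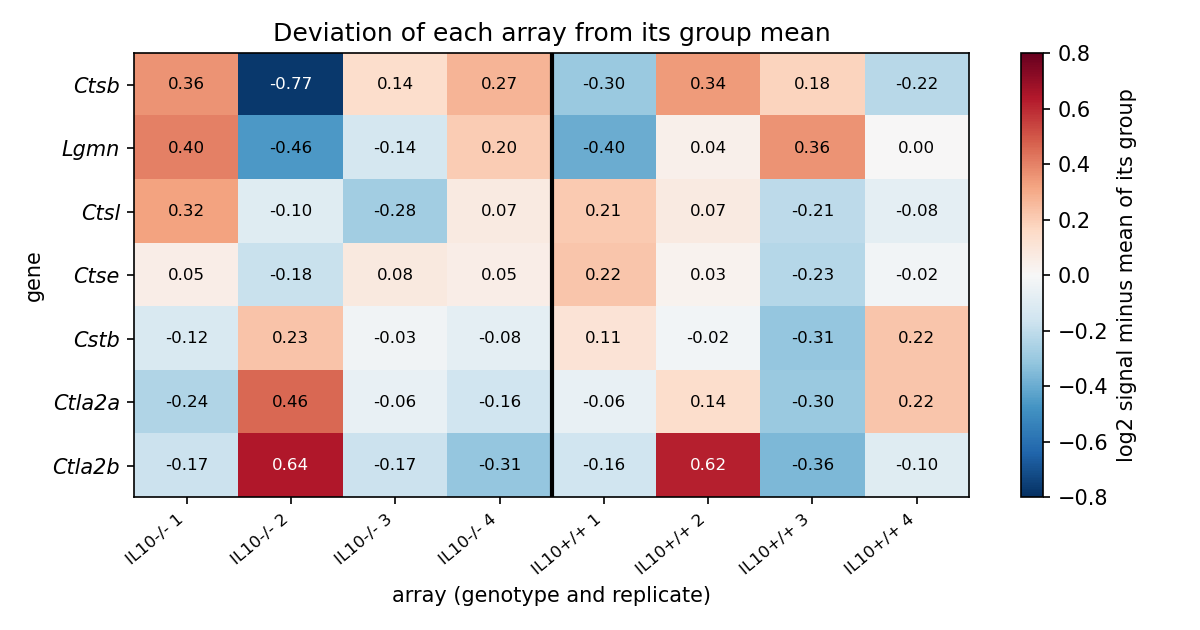
Deviation of each array from the mean of its own group (colour and printed value, log2 units) for the 7 genes, with IL10-/- arrays on the left. IL10-/- replicate 2 shows Ctsb 0.77 and Lgmn 0.46 under the group mean (printed as -0.77 and -0.46) and Ctla2a and Ctla2b 0.46 and 0.64 over it.

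IL10-/- replicate 2 also stood apart from the other arrays across all genes, as did IL10+/+ replicate 4. Their interquartile ranges were 2.15 and 2.17, against 2.32 to 2.58 elsewhere, and principal component 1, with 31.1% of the variance, placed them at 16.6 and 17.8, against -13.3 to -2.72 for the others. The summed log2 level of the 5 measured of 22 macrophage and monocyte markers was 38.19 in IL10-/- replicate 2, against 35.05 to 35.58 in the other IL10-/- arrays and 35.53 to 37.05 in IL10+/+ arrays. The 7 measured of 16 B cell markers summed to 51.28 in it, against 48.60 to 49.58 in the other IL10-/- arrays and 48.26 to 49.45 in IL10+/+ arrays. The neutrophil and granulocyte sum of 39.27 and the stroma and endothelium sum of 47.01 were also the highest of the IL10-/- arrays in it, against 37.63 to 38.06 and 45.68 to 46.20 in the others. In IL10+/+ arrays these sums ran from 38.44 to 38.98 and from 46.30 to 47.36. IL10-/- replicate 2 held the highest IL10-/- value for 39.4% of all genes. Its T cell and Treg sum of 52.40 was the lowest, against 53.57 to 53.95 in the other IL10-/- arrays and 53.40 to 54.06 in IL10+/+ arrays. IL10+/+ replicate 4 had the lowest macrophage and monocyte sum of its group (35.53) and a B cell sum of 48.60. In its group its stroma and endothelium sum was the highest (47.36) and its T cell and Treg sum the lowest (53.40). No measured marker was listed at 0, and Csf1r, Adgre1, Itgax and Ms4a1 were not analysed here. The part of array quality or of other cells in the deviations was not tested. Without both arrays that stood apart the differences were 2.89 for Ctse, 0.52 for Cstb, 0.72 for Ctla2a and 0.85 for Ctla2b, and -0.07 for Ctsb.

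By standard deviation within groups, Ctla2b (0.431) and Ctsb (0.429) lay at percentiles 96.1 and 96.0 of all genes, Lgmn (0.346) at 90.8 and Ctla2a (0.277) at 82.0. Ctsl (0.222) and Cstb (0.199) lay at 67.0 and 57.2. Ctse, with the widest difference between the genotypes, was the steadiest of the 7 inside the groups.

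For each gene the 2 genes of the table with the most similar deviations over the 8 arrays were looked up, as a description of the best of 6985 correlations. Ctsb was followed most closely by Gpx4, which encodes a lipid peroxidase, and by Grn, which encodes the lysosomal glycoprotein progranulin (r = 0.982 and 0.981). Ctse was followed by Ctdsp1 and Eif4enif1 (r = 0.965 and 0.960) and Ctsl by Dennd6a and Kdsr (0.990 and 0.957). Lgmn was followed by Zbtb24 and 1700001P01Rik (0.967 and 0.964) and Cstb by Mtdh and Polr3g (0.984 and 0.980). Ctla2a was followed by Rala and Olfr320 (0.975 and 0.970) and Ctla2b by Naglu and Ttc23l (0.963 and 0.940). Between the genotypes, limma's adjusted p of these 14 genes ran from 0.777 for 1700001P01Rik to 0.999.

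Other genes of the pathway were taken from lists that named them by function. Of the 68 measured, none passed limma's test over all genes in either direction, or the equal-variance test. At an unadjusted p under 0.05 limma counted 3 of the 68, with Serpinb1a higher and Galc and Atg16l1 lower, against 334 of all 6986 genes. Of 19 further cathepsins and aspartic proteases only Ctsg, which encodes a granule serine protease of neutrophils, was measured, at 5.93 ± 0.40 in IL10-/- and 5.88 ± 0.20 in IL10+/+ arrays (SD, n = 4 each; difference 0.06, SE 0.19, adjusted p = 0.999). The difference of Ctsg was -0.07 without IL10-/- replicate 2 and -0.05 without IL10-/- replicate 3. Ctss, Ctsd and Ctsz were not analysed here.

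All 9 placental cathepsins, relatives of cathepsin L encoded on chromosome 13, had values. Their group means ran from 4.28 to 6.24, under the medians over all genes of 6.97 to 7.12 in single arrays. Signal over background was not measured for them. Their median difference was 0.08, with 6 positive, and none passed limma's test. Without IL10+/+ replicate 2 the median was -0.05 with 2 positive, and without IL10-/- replicate 2 it was -0.01 with 4 positive. Ctsj read 5.44 ± 0.10 in IL10-/- and 5.21 ± 0.15 in IL10+/+ arrays (SD, n = 4 each; difference 0.22, SE 0.11), and Ctsm 4.28 ± 0.13 in IL10-/- and 4.59 ± 0.34 in IL10+/+ arrays (difference -0.31, SE 0.16), both with adjusted p = 0.999. Of 28 genes listed as other inhibitors of lysosomal proteases 5 were measured, all serpins, with a median of 0.02 and 4 positive. Serpinb1a, an inhibitor of granule serine proteases, read 8.90 ± 0.43 in IL10-/- and 8.40 ± 0.30 in IL10+/+ arrays (SD, n = 4 each; difference 0.50, SE 0.21, adjusted p = 0.999). Serpinb9, which inhibits granzyme B, read 8.38 ± 0.13 in IL10-/- and 8.26 ± 0.09 in IL10+/+ arrays (difference 0.12, SE 0.10, adjusted p = 0.999).

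Lysosomal hydrolases and their cofactors, 15 of 55 measured, had a median difference of -0.06 with 5 positive and 10 negative. Galc, which degrades galactosylceramide, read 6.82 ± 0.33 in IL10-/- and 7.28 ± 0.20 in IL10+/+ arrays (SD, n = 4 each; difference -0.46, SE 0.17, adjusted p = 0.850). Naglu, an enzyme of heparan sulfate breakdown, read 7.34 ± 0.12 in IL10-/- and 7.60 ± 0.18 in IL10+/+ arrays (difference -0.25, SE 0.12, adjusted p = 0.999). In 9 of the 15 the lowest IL10-/- array was replicate 2, as it was for Ctse, Ctsb and Lgmn, against 26.6% of all genes. This was not particular to the hydrolases. It was so for 10 of 21 lysosomal membrane, proton pump and sorting genes and 10 of 17 autophagy genes. It was so for 1 of 9 placental cathepsins and 0 of 5 other inhibitors, and not for Ctsg. Psap, the precursor of the saposins that assist lipid hydrolases, read 9.90, 8.77, 9.62 and 9.67 in IL10-/- arrays and 9.69, 10.42, 10.02 and 8.80 in IL10+/+ arrays. Its low arrays were thus the 2 that stood apart, 1 in each group. Psap was named after its values were seen.

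Lysosomal membrane, proton pump and sorting genes, 21 of 81 measured, had a median of 0.01 with 11 positive, and the median was -0.07 without IL10+/+ replicate 4 and -0.02 without IL10-/- replicate 4. Atp6v1h, a subunit of the proton pump, read 8.98 ± 0.04 in IL10-/- and 8.74 ± 0.19 in IL10+/+ arrays (SD, n = 4 each; difference 0.24, SE 0.11, adjusted p = 0.999). Slc38a9, an amino acid sensor of the lysosome, read 9.04 ± 0.06 in IL10-/- and 9.24 ± 0.20 in IL10+/+ arrays (difference -0.20, SE 0.12, adjusted p = 0.999). Autophagy genes, 17 of 40 measured, had a median of -0.07 with 7 positive, or 4 positive without IL10+/+ replicate 4. Atg16l1, part of the complex that lipidates LC3, read 8.32 ± 0.09 in IL10-/- and 8.67 ± 0.23 in IL10+/+ arrays (SD, n = 4 each; difference -0.35, SE 0.12, adjusted p = 0.830). Vmp1, a membrane protein of autophagosome formation, read 11.71 ± 0.05 in IL10-/- and 11.43 ± 0.24 in IL10+/+ arrays (difference 0.27, SE 0.13, adjusted p = 0.999).

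**Figure D4:**
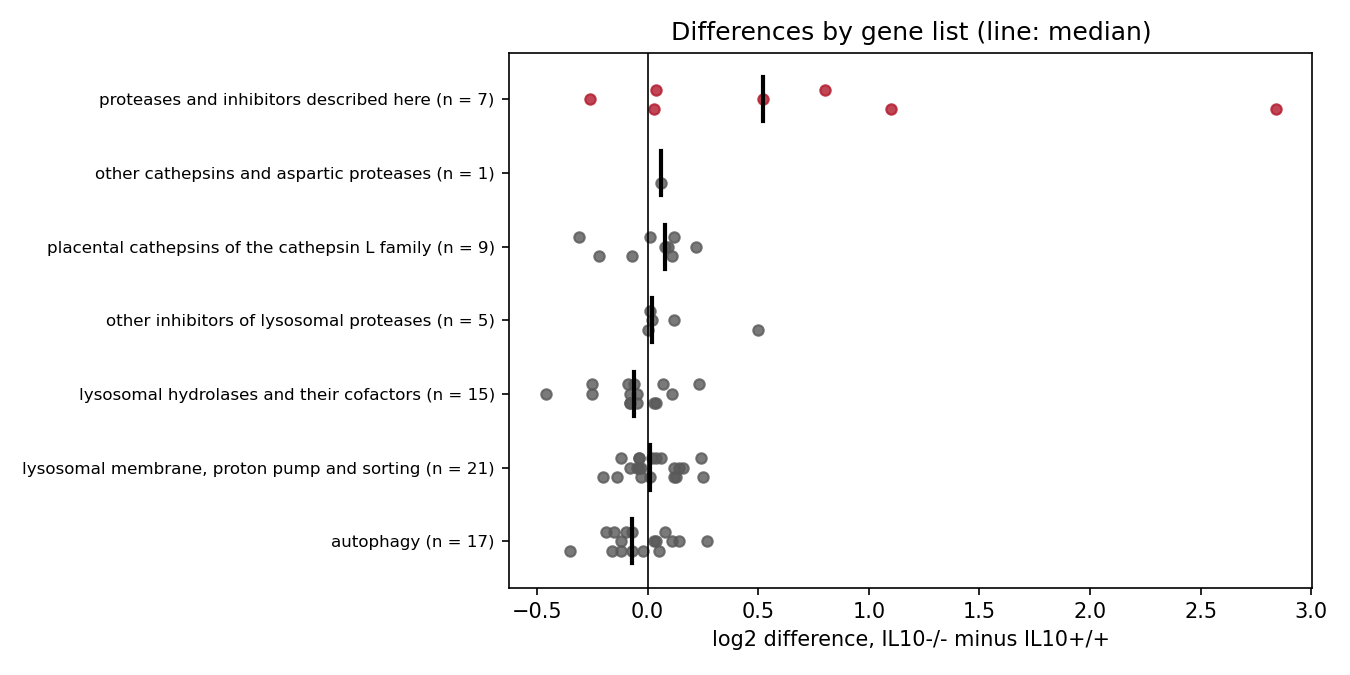
Log2 difference, IL10-/- minus IL10+/+ (x axis), of each measured gene of the 7 described here (top, red) and of 6 lists of related genes (grey), with the median as a black line. The medians of the 6 lists lie between -0.07 and 0.08.

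Marker lists of the cells that a sort can hold gave no gene past limma's test or the equal-variance test either, and 0 of 31 measured markers had an unadjusted p under 0.05 by limma. The median difference was -0.10 for the 5 T cell and Treg genes, 0.13 for the 7 B cell genes, -0.04 for the 5 macrophage and monocyte genes, 0.28 for Batf3, the only measured dendritic cell gene, -0.10 for the 6 neutrophil and granulocyte genes and -0.09 for the 7 stroma and endothelium genes. Named by the same rule, Ikzf2 differed by -0.19 and Icos by 0.13, Cd79b by 0.27 and Vpreb3 by 0.24, and Lyz1 by -0.42 and Marco by 0.09. Cxcr2 differed by -0.19, Fcer1a by -0.28, Col3a1 by -0.09 and Dcn by -0.10. Each of these had limma's adjusted p = 0.999. Beside Cstb, Ctla2a and Ctla2b, the summed macrophage and monocyte level ran from 35.05 to 38.19 in IL10-/- and from 35.53 to 37.05 in IL10+/+ arrays. The part of other cells in the differences of these 3 genes was not tested.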

How the data were processed

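RNA was hybridised to Affymetrix Mouse Gene 2.0 ST arrays, 1 per pool. The authors deposited log2 values per probe set, made in Partek Genomics Suite by RMA background correction, adjustment for GC content and the mean of the probes, according to the design text of the series. That the base is 2 follows from the range of the values. Affymetrix Expression Console is also named in the submitters' processing notes. For program versions and the genome build, the entry is "not given in the sources used here". No detection call was used, and the number of arrays limits the precision.

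The table held 16378 probe sets, 7358 with 1 gene, 456 with several and 8564 with none in the platform annotation. Symbols were updated by Entrez identifier (7310 matched), and the probe set with the highest mean was kept per gene, leaving 6986 genes. Of those with a known place 99.6% were on chromosome 1 or chromosomes 10 to 15, so gene lists were measured in part.

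Groups of 4 arrays were compared with limma 3.58.1 in R 4.3.3 (lmFit, eBayes, no trend), with Benjamini-Hochberg adjustment over all genes at 0.05. On simulated data with these means and spreads over 6986 genes, with 50 genes changed at each of 4 sizes, 98% of genes changed by 1 log2 unit and 40% of those changed by 0.5 were recovered. So many changed genes ease the adjusted threshold, so these shares do not carry over to the real data with 2 calls, where Il10, at a difference of 1.06, had limma's adjusted p = 0.405. Correlations used exact permutation in Python 3.11.15, and promoters were aligned with Biopython 1.88. The genes and lists were chosen with earlier results of these data known. The rule for names took the 7 genes, Il10, called genes of each list filled to 2 by smallest p, and the 2 likest genes of each member. The 17 alternatives were 2 normalizations, probe set averaging, a signal filter, 2 variance models, array weights, 6 arrays, a replicate block and each array left out.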

Additional observations from a re-analysis of the deposited data

Results flagged for a closer look

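Among the 30 genes named by rule that were checked, 4 of 60 groups of 4 arrays held 1 array far from the other 3 by Dixon's criterion, which chance alone meets in about 1 of 20 groups. In IL10-/- replicate 2, Ctse read 11.49, against 11.72 to 11.75 in the other IL10-/- arrays, and Ctla2b read 7.99, against 7.03 to 7.18. Naglu was high in the same array at 7.53, against 7.27 to 7.29 in the other IL10-/- arrays. Naglu was also high in IL10+/+ replicate 2 at 7.86, against 7.49 to 7.52 in the other IL10+/+ arrays.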

How the results depend on the processing

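With both normalizations and with array weights, the differences of the 7 genes moved by less than their spread between replicates. In groups of 4, leaving out 1 array of a group cannot move a difference past that spread, so those settings were no check of this. The variance models, probe set averaging, the signal filter and the replicate block do not alter the difference of a member. All settings were run, except that Ctla2b was below the signal filter and has no value there. With 1 array left out, Ctse ran from 2.76 to 2.91, Cstb from 0.42 to 0.60, Ctla2a from 0.65 to 0.88 and Ctla2b from 0.88 to 1.30, while Ctsb ran from -0.38 to 0.00, Ctsl from -0.07 to 0.13 and Lgmn from -0.11 to 0.18. The count of genes past limma's threshold was 2 with all arrays, and also 2 with quantile normalization, probe set averaging and the signal filter. It was 3 with a trended and robust variance, and 1 with array medians subtracted, by the equal-variance test, with array weights, with both arrays that stood apart left out, and with the replicate block, and 1 to 4 with 1 array left out. It was 4 without IL10-/- replicate 3, 2 without IL10-/- replicate 4 and 1 without any of the other arrays. The cause of the changes in count was not tested. The median of other inhibitors of lysosomal proteases was 0.12 with the signal filter, which leaves fewer of its genes. No gene of the 6 pathway lists passed in any setting run for its list. The further cathepsins and aspartic proteases and the placental cathepsins had no value with the signal filter. With array weights and with both arrays that stood apart left out, the median of the placental cathepsins was -0.03 and -0.04, and that of the further cathepsins (Ctsg alone) -0.08 and -0.09. The median of the lysosomal membrane list was -0.01 with array medians subtracted. Same-numbered arrays had correlations of deviations over all genes of 0.05, -0.32, 0.03 and -0.19. The 2 arrays that stood apart carry different numbers, so these values cannot show whether same-numbered arrays were handled together. The replicate block result (1 gene) therefore says nothing on strength. Signal over background was not measured for any gene.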
